A study of Mus musculus with 6 samples.

Results

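Kis2 and 2410007B07Rik are long noncoding RNA genes whose transcripts were abundant in pluripotent mouse embryonic stem cells (ESCs) and nearly gone from the neuronal cells (NCs) made from them with retinoic acid (RA). They were taken by name as the noncoding transcripts with the largest loss between the ESC and the NC column of the expression table, and they make up 2 of its 23235 rows, 2408 of which are noncoding. They were thus selected on the ESC and NC values themselves, so these values are given as a description, and no test was made on them. The study profiled RNA from 6 samples of E14Tg2a, a mouse ESC line that carries a disrupted Hprt gene, at passages 37 to 40. The 3 ESC samples were kept with leukemia inhibitory factor (LIF), the cytokine that holds mouse ESCs in the pluripotent state, and the 3 NC samples were grown without LIF in 1 µM RA for 2 days (48 h). Both groups are thus 1 cell line in culture, and the withdrawal of LIF and the addition of RA cannot be told apart. The deposited table carries 1 FPKM (a fragment count divided by the length of the transcript and the size of the library) for each gene in each of the 2 conditions, pooled by the authors over the replicates, so no value below has an SD or an n, and the spread between replicates is unknown.

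Long noncoding RNAs are transcribed, spliced and polyadenylated much like messenger RNAs but are not known to encode a protein, and many of them are made in only a few cell types. The Kis2 locus on the X chromosome is known as a site where retroviruses insert in mouse leukemias, and RNA that starts there is a precursor of the miR-106a-363 microRNA cluster, a relative of the growth-promoting miR-17-92 cluster. RefSeq now calls 2410007B07Rik Platr10 and lists Platr24 as another name of Kis2, where Platr stands for pluripotency associated transcript, a label that was itself given for expression in ESCs and is therefore no independent evidence for the values here.

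In the GENCODE M21 annotation of GRCm38 (the build mm10), Kis2 lies on the minus strand of chromosome X, between 52742563 and 52744960, with 4 annotated transcripts of 564 to 1717 bases in 2 or 3 exons. 2410007B07Rik lies on the minus strand of chromosome 3, between 75647446 and 75655731, with a transcript of 1026 bases in 3 exons and a transcript of 818 bases in 1 exon. None of the 50-base words of the Kis2 transcripts occurred in a transcript of another gene. Of the 977 such words in the longer 2410007B07Rik transcript, 18 also occurred in another gene. The members therefore shared little or no sequence of that length with other annotated transcripts, apart from these few words of 2410007B07Rik.

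The 6 microRNA hairpins of the cluster follow Kis2 on the same strand within 875 bases. They are shown because their seeds, the bases 2 to 8 that pair with target RNAs, tie Kis2 to other microRNA loci of the table. The mature sequences are those of RefSeq on GRCm38.p6, 5′ to 3′, with the seed in capitals.
miR-106a-5p: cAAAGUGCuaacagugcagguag
miR-18b-5p: uAAGGUGCaucuagugcuguuag
miR-20b-5p: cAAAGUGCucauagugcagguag
miR-19b-3p: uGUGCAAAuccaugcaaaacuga
miR-92a-3p: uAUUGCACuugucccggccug
miR-363-3p: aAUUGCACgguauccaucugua
For comparison, the first microRNA of the Mir17hg cluster and a microRNA of each ESC-enriched locus, Mir302 and Mir290, read as follows.
miR-17-5p: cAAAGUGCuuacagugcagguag
miR-302d-3p: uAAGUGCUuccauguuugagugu
miR-294-3p: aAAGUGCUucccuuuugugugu
The seed AAAGUGC was held by 2 microRNAs of the Kis2 cluster, 2 of the Mir17hg cluster and 2 of the Mcm7 cluster. The 5 microRNAs of the Mir302 and Mir290 loci that were picked for comparison had the seed AAGUGCU, which is the same core moved by 1 base. Other microRNAs of these loci, such as that of Mir367, were not compared, so this seed is not given for the whole of either locus.

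The first hairpin of the cluster, Mir106a, begins at the very end of the annotated Kis2 transcript. Mir106a spans 52742503 to 52742567 on chromosome X, and 5 of its bases overlap Kis2. The last 30 bases of the longest Kis2 transcript, with the shared bases in capitals, and the Mir106a hairpin, with miR-106a-5p in capitals, are shown because they give the point where the annotated gene stops.
end of Kis2: uacacuccuggaguaugccuuggccAUGUC
Mir106a hairpin: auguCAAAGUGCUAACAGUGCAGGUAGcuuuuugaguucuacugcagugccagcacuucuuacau
Only the first base of miR-106a-5p lies inside the annotated Kis2 gene. The other 5 hairpins lie 149 to 795 bases beyond its end, so reads from a longer precursor that ran on into the cluster would lie outside a Kis2 row built on this annotation.

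Kis2 was listed at 128 FPKM in ESCs and at 0.245 FPKM after differentiation to NCs. Its NC level was 0.192% of its ESC level, a 519.8-fold difference, or a log2 ratio of NC to ESC of -9.02. Kis2 was thus among the most abundant RNAs of the table in ESCs, where 728 rows had a higher FPKM and 96.9% a lower one, but not in NCs, where 14840 rows had a higher FPKM and 36.1% a lower one. Among the 374 long noncoding rows with at least 1 FPKM in either condition, 10 were above Kis2 in ESCs.

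2410007B07Rik was listed at 67.7 FPKM in ESCs and 0.379 in NCs. Its NC level was 0.560% of its ESC level, a 179-fold difference and a log2 ratio of -7.48. In ESCs 1448 rows had a higher FPKM than 2410007B07Rik and 93.8% a lower one, and in NCs 14237 rows had a higher and 38.7% a lower FPKM. The order of the members turned over between the conditions. In ESCs the Kis2 FPKM was 1.88 times that of 2410007B07Rik, and in NCs the 2410007B07Rik FPKM was 1.55 times that of Kis2, so the fold loss of Kis2 was 2.91 times the larger. Without replicate values, none of these differences between the members could be set against their spread.

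The low NC values were not at the bottom of what the table can list. They were compared with rows of genes that have a single annotated transcript, so genes with several transcripts, such as the members, were left out. Among 365 such rows with a length within 10% of that of the longest Kis2 transcript, 80 were listed at 0 in NCs. The lowest value above 0 was 0.00416 FPKM, so that the Kis2 value was 59.0 times the lowest and above 57.5% of these rows. For 487 such rows of like length to 2410007B07Rik, 292 were listed at 0 in NCs. Its value was 65.0 times the lowest one above 0 and higher than in 85.4% of these rows. Both members were thus still listed above 0 in NCs. The number of fragments in each library is unknown, so no counting interval can be given for these low values. In bulk RNA, fewer cells that make a transcript and less of it in every cell cannot be told apart.

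**Figure D1:**
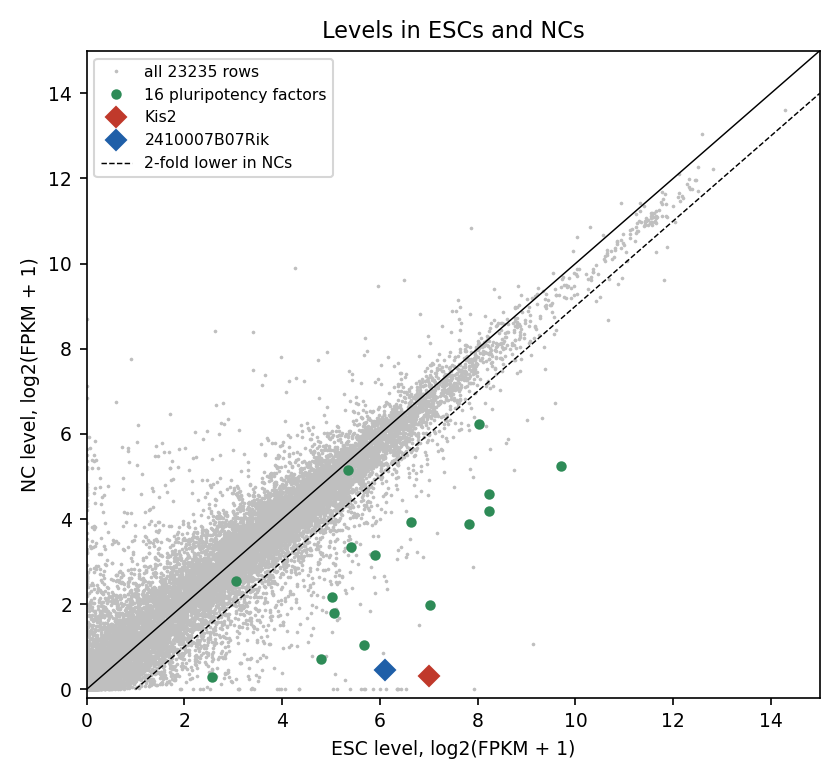
Each grey point is 1 of the 23235 rows, placed by its ESC level (horizontal) and its NC level (vertical), both as log2(FPKM + 1); diamonds mark the members and green points 16 pluripotency factors, the solid line equal levels and the dashed line a 2-fold lower value in NCs. Kis2 and 2410007B07Rik lie at the lower edge, far to the right of most rows with so low an NC level.

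When all 13219 rows above 0 in both conditions and at 1 FPKM or more in either were ordered by their ratio, Kis2 came first and 2410007B07Rik sixth. Tdgf1, which encodes the Nodal co-receptor Cripto, was just behind Kis2, with 564 FPKM in ESCs, 1.098 in NCs and a 513-fold difference. The rows on either side of 2410007B07Rik were Otx2, a homeobox transcription factor, which was 228-fold lower in NCs (37.8 to 0.166 FPKM), and Ly6g6e, a gene of the Ly6 family of surface proteins, which was 113-fold lower (32.7 to 0.290 FPKM). The largest losses by ratio were therefore shared between noncoding and protein-coding rows.

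Among the 506 noncoding rows of that order, Kis2 was first and 2410007B07Rik came after 1 other row. Between them lay A930011O12Rik, which RefSeq names Mir124a-1hg, a host gene of the neural microRNA miR-124. It was listed at 9.51 FPKM in ESCs and 0.0252 in NCs, 378-fold lower. On the log2(FPKM + 1) scale, which gives less weight to ratios that rest on a very small value, A930011O12Rik had a log2 ratio of -3.36, against -6.69 for Kis2 and -5.64 for 2410007B07Rik. On that scale Kis2 and 2410007B07Rik were first and second of 1720 long noncoding rows.

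The noncoding row just behind 2410007B07Rik in this order was Nphs1as, an antisense transcript of the nephrin gene Nphs1, which was 99.6-fold lower in NCs (4.52 to 0.0454 FPKM, log2 ratio -6.64). Of the noncoding rows with at least 5 FPKM in the higher condition and above 0 in both, the largest losses after those of A930011O12Rik and the members were in C330046G13Rik (Platr7), which was 48.7-fold lower in NCs (6.78 to 0.139 FPKM), and in Mir1897, which was 32.4-fold lower (13.2 to 0.406 FPKM). Under the same 2 limits, the noncoding rows with the largest difference in the other direction were led by rows of low ESC level. Msx1as, an antisense transcript of the homeobox gene Msx1, was listed at 0.144 FPKM in ESCs and 9.85 in NCs (log2 ratio 6.09), and Mira, a transcript of the Hoxa cluster, at 0.135 and 6.07 FPKM (log2 ratio 5.49). Airn, the antisense transcript that silences the imprinted Igf2r gene, went from 0.285 to 5.08 FPKM (log2 ratio 4.16). The sources used here do not say that reads were counted by strand, so values of antisense transcripts such as Nphs1as, Msx1as and Airn may include reads of the gene across from them. D17Ertd648e (6.42 to 79.9 FPKM) and 2310039L15Rik (18.3 to 157 FPKM) completed the 5 largest noncoding increases among rows within these limits, which leave out rows listed at 0 in ESCs. Of all 575 noncoding rows with at least 1 FPKM in either condition, 112 (19.5%) were at least 2-fold higher in NCs, and none of the ratios of these 5 was as far from 0 as those of Kis2 and 2410007B07Rik.

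A difference of at least 2-fold in either direction was used to count rows, over rows with at least 1 FPKM in either condition. Of all 13293 such rows, 1412 (10.6%) were at least 2-fold lower in NCs and 1658 (12.5%) at least 2-fold higher. The share of lower rows was 19.8% among the 374 long noncoding rows, and 23.7% among all 575 noncoding rows, which also hold microRNA and small nucleolar RNA genes. The median log2 ratio was -0.03 over all rows and -0.17 over long noncoding rows, so the log2 ratios of -9.02 and -7.48 lay far below the middle of either class. Rescaling both columns to the same sum would raise every log2 ratio by 0.29, which leaves the direction and the order of the members as they are.

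Rows of similar ESC level mostly stayed near that level in NCs. Within 1.5-fold of the ESC FPKM of Kis2 there were 647 other rows, and 73 of them were at least 2-fold lower in NCs (11.4% of the rows in that range, Kis2 included). Their median NC level was 95.3 FPKM and their median log2 ratio -0.27, with a 5th percentile of -1.54. Kis2, at -9.02, had a larger loss than 99.8% of them, and the exception was Mir1956, a microRNA row that was listed at 0 in NCs. The nearest rows above 0 were Tdh (threonine dehydrogenase, a mitochondrial enzyme on which mouse ESCs depend), with 110.9 FPKM in ESCs and 1.85 in NCs, 60.0-fold lower, and the orphan nuclear receptor Esrrb, with 128 FPKM in ESCs and 2.94 in NCs, 43.7-fold lower. After these came Etv5, an ETS transcription factor (15.4-fold lower), and L1td1, an RNA-binding protein of ESCs (12.96-fold lower). Kis2 and Esrrb thus had nearly the same FPKM in ESCs, while the NC value of Esrrb was 2.94 FPKM against 0.245 FPKM for Kis2.

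For 2410007B07Rik the same range held 1296 other rows, of which 124 were at least 2-fold lower in NCs (9.64% of the rows in that range, the member included). Their median NC level was 53.5 FPKM and their median log2 ratio -0.24, with a 5th percentile of -1.39. A larger loss was listed for 11 rows, all of them rows of small RNAs at 0 in NCs, and 99.2% had a smaller loss. The nearest rows above 0 were Fgf4, a growth factor that ESCs secrete (65.7 to 0.818 FPKM, 80.3-fold lower), Tcl1, a coactivator of the kinase Akt (50.3 to 1.05 FPKM, 47.8-fold lower), and the septin Sept1 (54.7 to 2.60 FPKM, 21.1-fold lower). Lefty1, an inhibitor of Nodal signaling, was 15.8-fold lower (47.5 to 3.004 FPKM). At similar ESC level, 2410007B07Rik thus had a lower NC level than each of these protein-coding genes.

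**Figure D2:**
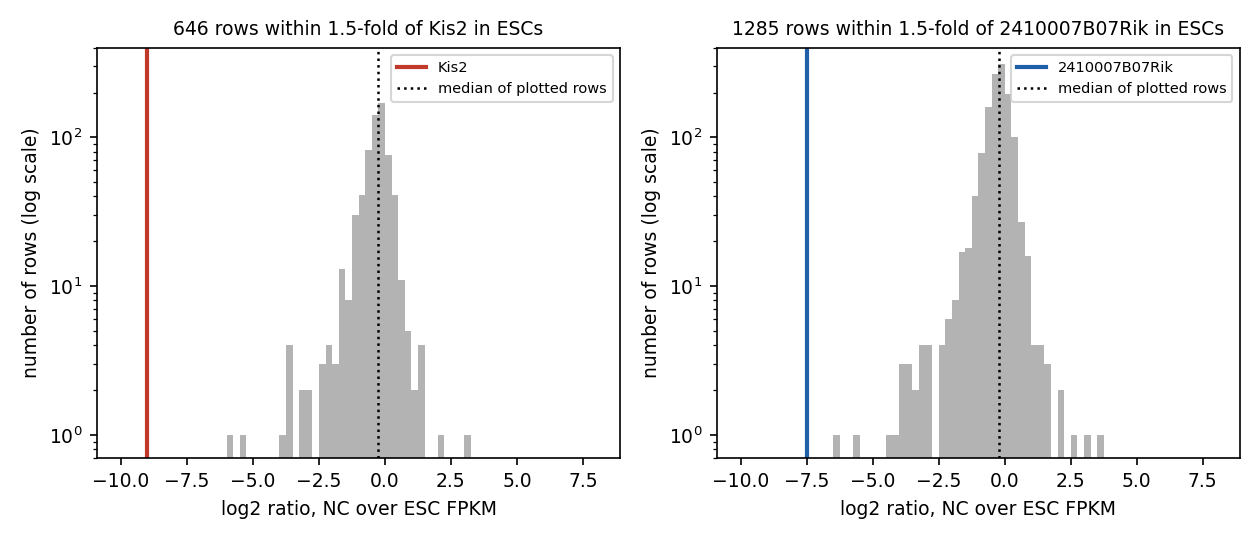
Histograms of the log2 ratio of NC to ESC FPKM for the rows within 1.5-fold of the ESC FPKM of Kis2 (left, 646 rows) and of 2410007B07Rik (right, 1285 rows), with the number of rows on a log scale; rows listed at 0 in NCs are left out. The coloured line marks the member, at -9.02 and -7.48, to the left of every plotted row, and the dotted line the median of the plotted rows.

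The rows most like each member over the 2 conditions were found by their distance on log2(FPKM + 1). For 2410007B07Rik these were Fgf4, Mir302b, Mir3097, Mir324 and Mir302d, and for Kis2 they were Mir1956, Mir485, Mir135a-1, Mir302d and Mir668. The microRNA rows among them were all listed at 0 in NCs. Such rows stand for short hairpins in libraries that were not made for small RNAs, and a few of them shared a value. Mir302d and Mir668 both had 80.9654 FPKM and both have hairpins of 66 bases. Without microRNA and small nucleolar RNA rows, an exclusion chosen after the data were seen, the row nearest to Kis2 was 2410007B07Rik (distance 0.91), followed by Fgf4, Tdh, Tcl1 and Esrrb. For 2410007B07Rik they were Fgf4 (distance 0.40), Tcl1, Otx2, Kis2 and Ly6g6e. With only 2 values per row, likeness means no more than a similar pair of levels.

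The protein-coding genes around Kis2 did not show a loss of its size. Of the 10 nearest named rows, 6 had at least 1 FPKM in either condition, and 4 of these were hairpin rows of the microRNA cluster. Of the 6, 1 was at least 2-fold lower in NCs, the hairpin row Mir18b (19.2 FPKM in ESCs and 0 in NCs). The hairpin row Mir92-2 was the 1 that was at least 2-fold higher, against 10.6% lower and 12.5% higher of all rows. Mir19b-2 also passed 2-fold higher once the columns were rescaled to the same sum. The nearest protein-coding gene, Ccdc160, which lies 46.6 kb away, was listed at 5.85 FPKM in ESCs and 5.30 in NCs. Phf6, a PHD finger gene 168 kb away, was listed at 12.2 FPKM in ESCs and was 1.55-fold higher in NCs. Hprt, the purine salvage gene that is disrupted in E14Tg2a cells, lies 243 kb away and was listed at 0.242 and 0.465 FPKM, so the low level known for this line was present in both conditions. Mir450b and Mir450-1 were listed at 0 in both.

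On the other side of the microRNA cluster, Gpc3, which encodes a heparan sulfate proteoglycan of the cell surface, lies 129 kb from Kis2. It went the other way, from 52.6 FPKM in ESCs to 245 FPKM in NCs, 4.65-fold higher. Over the 5 nearest protein-coding rows on each side, a range chosen after the data were seen, 8 of 10 had at least 1 FPKM, 1 was at least 2-fold lower and 3 at least 2-fold higher, beside 10.6% and 12.5% of all rows. The lower one was the ubiquitin protease gene Usp26 (7.80 to 3.44 FPKM, log2 ratio -1.18), which was within 2-fold once the columns were rescaled, and the higher ones were Gpc3, the heparan sulfate sulfotransferase gene Hs6st2 (1.47 to 14.5 FPKM) and Plac1 (0.111 to 1.04 FPKM). The lowest log2 ratio near Kis2 in protein-coding rows was thus -1.18, next to -9.02 for Kis2 itself.

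The gene next to 2410007B07Rik had a lower NC level as well, by a much smaller factor. Serpini1, which encodes the protease inhibitor neuroserpin, ends 4917 bases from the 3′ end of 2410007B07Rik on the opposite strand, so that the genes point towards each other. It was listed at 3.33 FPKM in ESCs and 1.24 in NCs, 2.68-fold lower, or a log2 ratio of -1.42 beside -7.48 for 2410007B07Rik. Pdcd10, 90.6 kb away, was listed at 35.7 and 29.2 FPKM, and Golim4, a Golgi membrane protein gene 220 kb away on the other side, at 4.57 and 9.04 FPKM (log2 ratio 0.98). Of the 4 rows with at least 1 FPKM among the 10 nearest, Serpini1 was at least 2-fold lower and none was at least 2-fold higher, beside 10.6% and 12.5% of all rows, although Golim4 passed 2-fold higher once the columns were rescaled to the same sum.

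The remaining neighbours were silent or far off. Serpini2 was listed at 0 in both conditions, and Zbbx at 0.173 and 0.183 FPKM. Fstl5 (0.0309 to 0.00784 FPKM) and Gm20356 (0.0213 to 0.00626 FPKM) had ratios past 2-fold on values close to 0, whereas 4921511C10Rik was at 0.0218 FPKM in ESCs and 0.0220 in NCs. Gm17359 was listed at 0 in ESCs and 0.0514 FPKM in NCs. Rapgef2, an activator of Rap GTPases that lies 3407 kb away, was listed at 3.57 and 5.81 FPKM. Over the protein-coding neighbours alone, 6 of 10 had at least 1 FPKM, with Serpini1 lower and Bche, the butyrylcholinesterase gene, higher (0.407 to 1.64 FPKM, log2 ratio 2.01), beside 10.6% and 12.5% of all rows.

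**Figure D3:**
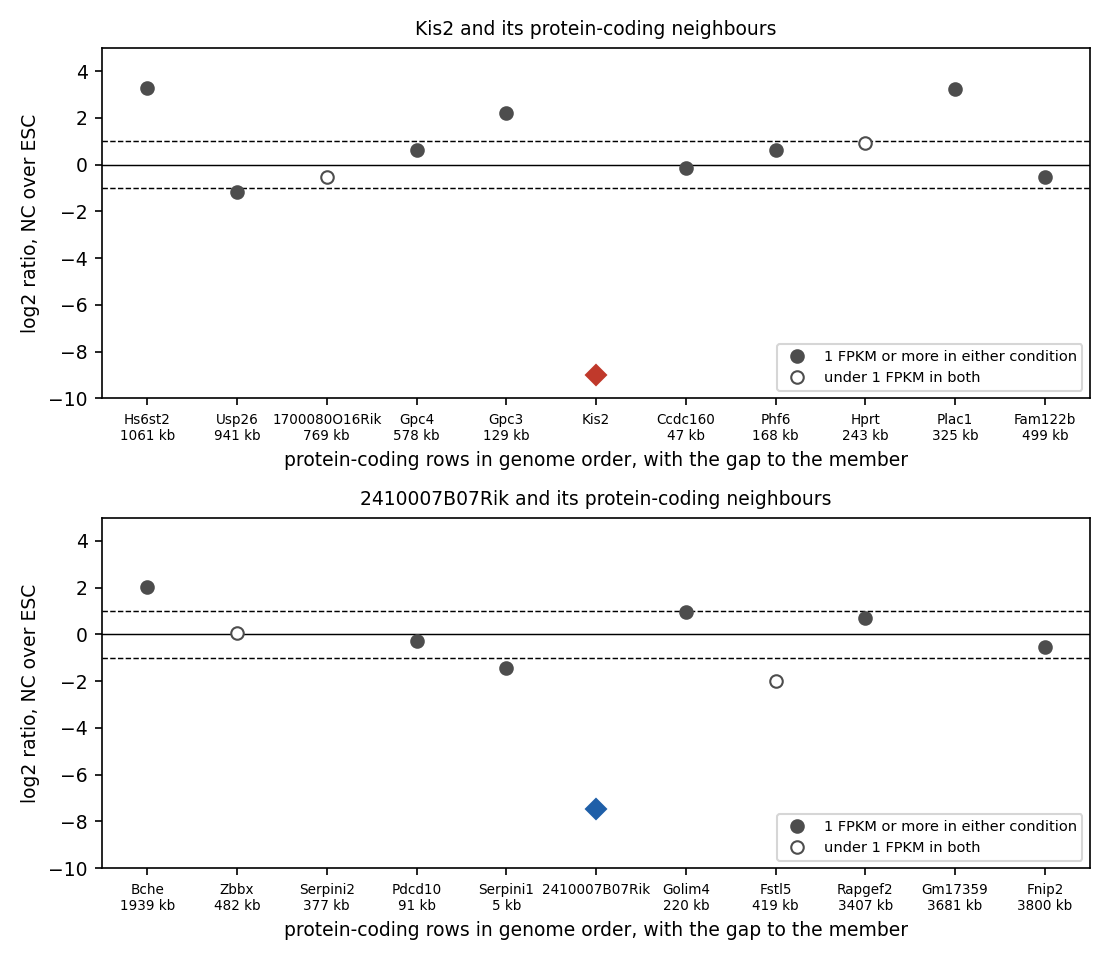
The log2 ratio of NC to ESC FPKM (vertical) for Kis2 (top) and 2410007B07Rik (bottom) and their 5 nearest protein-coding rows on each side in genome order, not to scale along the chromosome, with the gap in kb under each name; open circles had under 1 FPKM in both conditions, dashed lines mark 2-fold, and Serpini2 and Gm17359 have no point because they were listed at 0. The members sit at -9.02 and -7.48, and every neighbour with a point lies above -2.

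The microRNA rows that follow Kis2 differed from each other in direction. Of the 6 hairpins, 5 had a row, and Mir106a was not found under that name. Mir363 was listed at 469 FPKM in ESCs and 311 in NCs (log2 ratio -0.59). Its hairpin has only 75 bases and FPKM divides by length, so its level was not compared with that of Kis2. Mir92-2 was listed at 40.8 and 109 FPKM (log2 ratio 1.41) and Mir19b-2 at 30.3 and 58.7 FPKM. Mir18b was the only lower row past 2-fold, at 19.2 FPKM in ESCs and 0 in NCs, and Mir20b was listed at 0 in both conditions.

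These hairpin rows bear less weight than the Kis2 row. Of all 565 microRNA rows, 483 were listed at 0 in ESCs and 478 in NCs, and 63 were at 0 in exactly 1 of the conditions. In ESCs 6 of the 82 microRNA rows above 0 (7.32%) had the same FPKM as another microRNA row, whereas 1.23% of the other rows had a value in common. The value of Mir18b, 19.2235 FPKM, was also that of Mir568, each with a hairpin of 83 bases. The rows of the cluster thus gave no single direction, and they do not measure mature microRNAs.

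The hosts of the related clusters that share seeds with the Kis2 cluster were within 2-fold between the conditions as deposited, although Mir17hg passed 2-fold higher once the columns were rescaled to the same sum. Mir17hg, the host of the miR-17-92 cluster, was listed at 15.9 FPKM in ESCs and 31.1 in NCs (log2 ratio 0.96). RefSeq places Mir17hg at 115044390 to 115046728 on chromosome 14. The hairpins Mir17, Mir18, Mir19a and Mir20a lie before that start, so its row, like that of Kis2, may not cover its cluster. Mcm7, a subunit of the replicative helicase whose intron carries the miR-106b-25 cluster, was listed at 245 and 193 FPKM (log2 ratio -0.34). Over the hosts and hairpins of these clusters, 8 rows had at least 1 FPKM, 1 was at least 2-fold lower (Mir93, 26.5 to 7.36 FPKM) and 3 were at least 2-fold higher, beside 10.6% and 12.5% of all rows. The higher ones were the hairpin rows Mir17, Mir18 and Mir106b, each listed at 0 in ESCs, and with the columns rescaled 4 rows were at least 2-fold higher. Of the loci that code for the seed AAAGUGC, the annotated host with a large loss was Kis2, next to log2 ratios of 0.96 and -0.34 for Mir17hg and Mcm7.

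The microRNAs of the Mir302 and Mir290 loci with the shifted seed AAGUGCU are abundant in ESCs. The list for these loci also held the protein-coding genes AU018091 and Larp7. Of its 8 rows with at least 1 FPKM, 7 were at least 2-fold lower in NCs, beside 10.6% of all rows and 23.7% of noncoding rows. Of these 7, 5 were hairpin rows listed at 0 in NCs, the kind of row that bears less weight. Mir302a, Mir302b, Mir302c, Mir302d and Mir367 were all listed at 0 in NCs, after 50.3 to 243 FPKM in ESCs. Mir290 went from 44.6 to 9.96 FPKM. AU018091 reaches to 3169203 on chromosome 7, whereas the Mir290 hairpin starts at 3218626, so they do not overlap. AU018091 went from 33.2 to 5.72 FPKM (log2 ratio -2.54). Larp7, the gene whose intron carries the Mir302 hairpins, was listed at 43.8 and 38.8 FPKM (log2 ratio -0.17). Whether its transcript is a precursor of these hairpins was not tested, so its row is not taken as that of a host.

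The genes that make and use microRNAs were mostly within 2-fold between the conditions. Of 16 rows of the maturation list, which holds the nuclear Drosha complex, the export factors, Dicer and the Argonaute proteins, none was at least 2-fold lower and 2 were at least 2-fold higher, with a median log2 ratio of -0.04 next to -0.03 for all rows. Of all rows, 10.6% were at least 2-fold lower and 12.5% at least 2-fold higher, and with the columns rescaled 3 of the 16 were higher. The higher ones as deposited were Dgcr8, the RNA-binding partner of Drosha (12.8 to 53.9 FPKM, log2 ratio 2.08), and Eif2c4, an Argonaute gene (0.504 to 1.16 FPKM). Among 15 genes known as targets of the miR-17 seed family, 2 were at least 2-fold lower, the retinoblastoma-related gene Rbl2 (3.44 to 1.64 FPKM) and Stat3, the transcription factor downstream of LIF (29.0 to 13.9 FPKM). The 2 that were at least 2-fold higher were the Hippo kinase gene Lats2 (1.10 to 5.38 FPKM) and the TGF-β receptor gene Tgfbr2 (0.725 to 1.51 FPKM). These counts are near the shares of all rows, 10.6% and 12.5%, and the median log2 ratio of the targets was -0.05, and with both columns rescaled to the same sum 0 of them were 2-fold lower and 3 were 2-fold higher.

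Other well-known long noncoding RNAs, as found by row name, had log2 ratios from -2.39 to 4.16, next to -9.02 and -7.48 for the members. The list also held Mir124a-1hg, but its row is named A930011O12Rik (log2 ratio -8.56, between those of the members). That row was thus left out of this range and of the counts below. Of 33 rows of such a list, 28 had at least 1 FPKM, 6 were at least 2-fold lower in NCs and 3 at least 2-fold higher, beside 19.8% and 15.8% of all long noncoding rows, and the median log2 ratio was -0.35. With the columns rescaled, the counts were 1 lower and 4 higher. The largest loss among these 28 rows was that of Pvt1, the neighbour of the oncogene Myc (4.45 to 0.850 FPKM, log2 ratio -2.39). The imprinted RNAs H19 (112 to 453 FPKM, log2 ratio 2.01) and Peg13 (0.377 to 1.58 FPKM, log2 ratio 2.07) were higher, as was Airn, described above. Malat1, a nuclear RNA of most cell types, was listed at 108 and 60.7 FPKM, and the imprinted Meg3 at 174 and 125 FPKM. In ESCs, Kis2 at 128 FPKM was thus in the range of Malat1, H19 and Meg3, and in NCs it was far below that range.

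Of the 21 genes with a Platr name in RefSeq, 11 had a row in the table, the members included, and all 11 had a lower FPKM in NCs. This list was made after the data were seen, and since its genes were named by others for their link to pluripotency, the shared direction is no independent evidence. Without Kis2 and 2410007B07Rik, 7 of the other 9 had at least 1 FPKM, and 7 of the 7 were at least 2-fold lower (5 with the columns rescaled), beside 19.8% of long noncoding rows. Their median log2 ratio was -2.32, next to -9.02 and -7.48 for the members. 4930500J02Rik (Platr14) had an ESC level between those of the members, 79.1 FPKM, but kept 26.7 FPKM in NCs, a 2.97-fold difference. Gm1631 (Platr26) was 11.8-fold lower (3.29 to 0.279 FPKM) and Gm16880 (Platr22) 8.22-fold lower (4.88 to 0.594 FPKM). 2410088K16Rik (Platr5) went from 10.5 to 2.102 FPKM, C330013F16Rik (Platr21) from 5.999 to 2.45 FPKM and C430002E04Rik (Platr4) from 3.88 to 1.66 FPKM. 2410114N07Rik (Platr9) and Gm13939 (Platr8) were under 1 FPKM in both conditions.

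**Figure D4:**
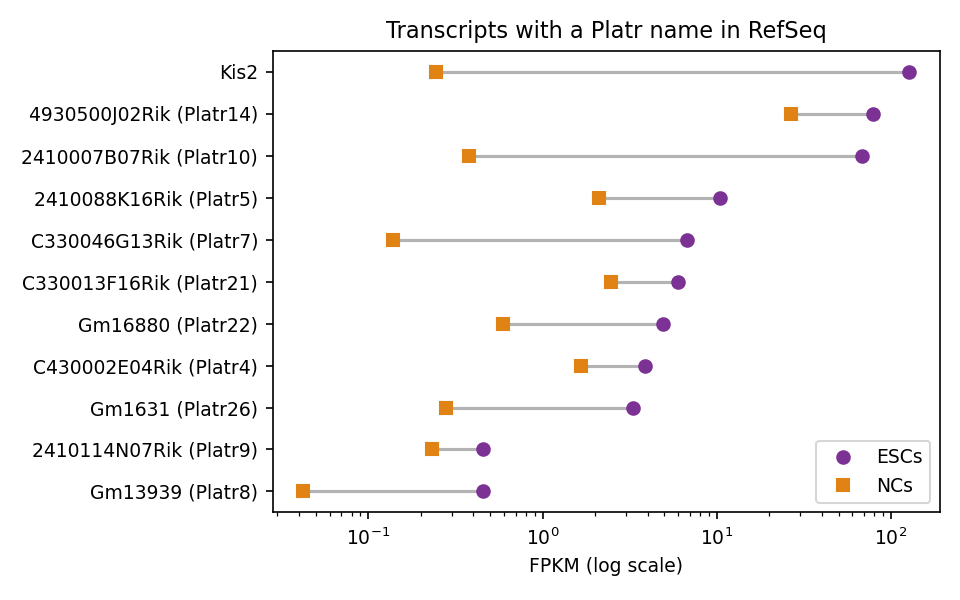
FPKM in ESCs (circles) and NCs (squares) on a log axis for the 11 rows with a Platr name in RefSeq, ordered by ESC FPKM, with a grey line joining the values of a gene. All 11 squares lie to the left of their circles, and the lines of Kis2 and 2410007B07Rik are the longest, from 128 to 0.245 FPKM and from 67.7 to 0.379 FPKM.

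The protein-coding pluripotency factors gave a scale for these losses and a check of the labels. Of 16 factors, 14 were at least 2-fold lower in NCs, beside 10.6% of all rows, with a median log2 ratio of -3.72. Pou5f1, the Oct4 transcription factor, was listed at 832 FPKM in ESCs and 37.1 in NCs (log2 ratio -4.49), and Nanog, a homeobox factor, at 225 and 13.9 FPKM. The factors kept from 2.09% (Tcl1) to 86.3% (Sall4) of their ESC level, so that the share kept by Kis2, 0.192%, and by 2410007B07Rik, 0.560%, was below that of each of the 16. The NC columns also held the RA response, since of 11 early neural and RA-response genes with at least 1 FPKM 9 were at least 2-fold higher in NCs, beside 12.5% of all rows, and 1, the neuronal tubulin gene Tubb3, was lower (33.4 to 7.54 FPKM). Cyp26a1, the enzyme that breaks down RA, went from 0.874 to 215 FPKM.

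**Figure D5:**
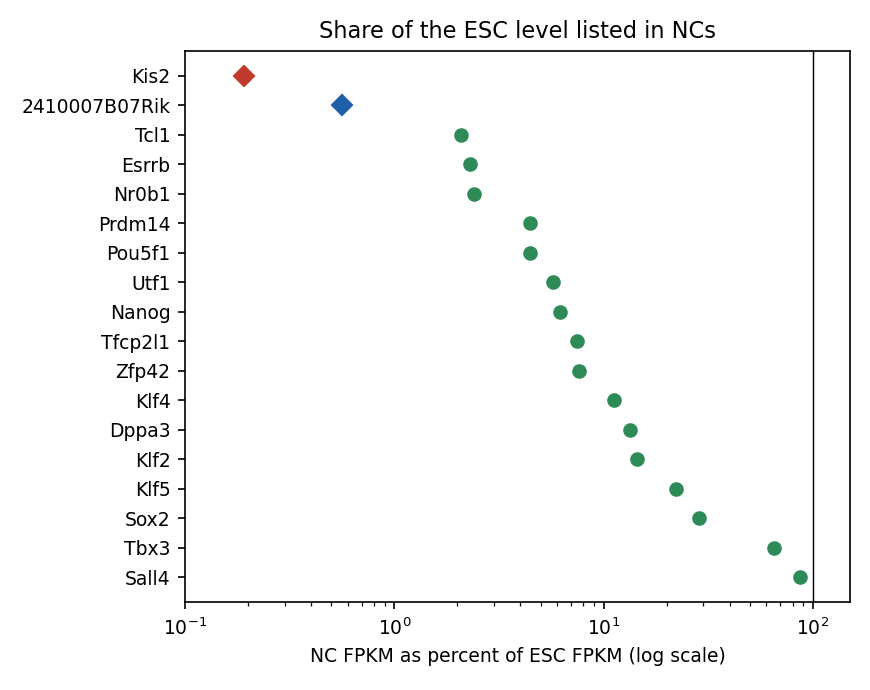
The NC FPKM as a percentage of the ESC FPKM, on a log axis, for Kis2 and 2410007B07Rik (diamonds) and 16 protein-coding pluripotency factors (circles), with a line at 100%. The members, at 0.192% and 0.560%, lie to the left of all 16 factors, of which Tcl1, at 2.09%, is the nearest.

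Markers of other cells differed between the conditions as well. Of 6 markers of fibroblasts or feeder cells, 4 were at least 2-fold higher in NCs and 1 was at least 2-fold lower, beside 12.5% and 10.6% of all rows, and their summed level was 33.4 FPKM in ESCs and 66.5 in NCs. The lower one was the surface glycoprotein gene Thy1 (9.64 to 1.80 FPKM), and Col1a2, a collagen gene, was higher (3.47 to 23.3 FPKM). Of 11 markers of primitive endoderm, mesoderm and trophoblast, 5 reached 1 FPKM, none was at least 2-fold lower and 3 were at least 2-fold higher, beside the same shares of all rows, with the highest value 5.48 FPKM for Gata6, a primitive endoderm transcription factor, in NCs. The part of such cells in the values of Kis2 and 2410007B07Rik was not tested.

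The promoters of the members differed in base composition. Each is shown from 250 bases before to 50 bases after the start that RefSeq gives on GRCm38.p6, 5′ to 3′ on the minus strand, with CpG dinucleotides in capitals, to set their base composition side by side. The Kis2 window is chrX:52744544-52744843 and the 2410007B07Rik window is chr3:75655682-75655981.
Kis2 promoter: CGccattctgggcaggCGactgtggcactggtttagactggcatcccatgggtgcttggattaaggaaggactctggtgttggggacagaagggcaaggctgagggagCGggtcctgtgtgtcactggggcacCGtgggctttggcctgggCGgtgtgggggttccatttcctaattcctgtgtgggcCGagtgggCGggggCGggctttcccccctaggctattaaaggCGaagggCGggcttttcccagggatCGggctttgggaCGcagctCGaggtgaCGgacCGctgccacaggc
2410007B07Rik promoter: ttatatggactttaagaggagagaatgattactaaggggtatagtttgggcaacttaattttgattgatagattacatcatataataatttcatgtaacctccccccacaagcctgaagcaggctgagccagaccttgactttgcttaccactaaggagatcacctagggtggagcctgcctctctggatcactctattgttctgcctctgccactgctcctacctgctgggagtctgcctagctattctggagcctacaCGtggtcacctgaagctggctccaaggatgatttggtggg
The Kis2 window held 15 CpG dinucleotides and 63.3% G and C, and the 2410007B07Rik window 1 CpG and 47.0% G and C, where the medians over 32851 promoter windows of the same length were 7 CpG and 52.7%. Fewer CpG were found in 65.4% of all windows than in that of Kis2, and in 5.43% than in that of 2410007B07Rik. Promoters with many and with few CpG were thus both present among the noncoding genes with the largest loss. The longest-reaching annotated Kis2 transcript starts further upstream, at 52744960, outside the window.

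Exact letters of 7 motifs were looked for on both strands, with N for any base. They were the octamer ATGCAAAT (present in 1.74% of all windows), CATTGTT for Sox factors (3.78%), AGGTCA for nuclear receptors (16.3%), TTCNNNGAA for STAT factors (8.30%), CCCCACCC for Klf factors (9.99%), TATAAA (13.6%) and CCAAT (37.4%). None of these was in either window, which says only that these letters are not within these 300 bases.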

How the data were processed

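RNA-seq was done by the authors on 3 ESC and 3 NC samples with TruSeq libraries on an Illumina HiSeq instrument. Reads were aligned to mm10 with Bowtie2 2.1.0 under TopHat2 2.0.8, and Cufflinks 2.0.2, Cuffmerge and Cuffdiff gave the deposited FPKM values, 1 per gene and condition. The Cuffdiff version, gene release and normalization option are not given in the sources used here. The NC column is headed FPK and was read as FPKM, because the log2 ratio of both columns equals the fold change beside it. The fold changes, test statistics, p-values and q-values of the authors' own comparison were not used otherwise.

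Ratios were computed from FPKM without a pseudocount, with Python 3.11.15, numpy 2.4.6, pandas 2.3.3 and matplotlib 3.10.9, and the counting was tested on simulated data. Depth per sample is unknown. Of the rows, 99.4% matched RefSeq (GRCm38.p6) by symbol or synonym, and 426 rows have a repeated name. A fold limit of 2 and a filter of 1 FPKM in either condition were used. The genes named were the members, 5 neighbours on each side, the 5 rows nearest in pattern, the largest noncoding losses and gains, the rows next in order of loss or of like ESC level, and examples of fixed lists. Examples from the Platr list, the protein-coding neighbours and rows of like ESC level were chosen after their values were seen. The members and all lists were chosen with earlier results of these data known. Alternatives were other pseudocounts, filters, scalings, ranges of ESC level and neighbour ranges.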

Additional observations from a re-analysis of the deposited data

How the results depend on the processing

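The log2 ratio of Kis2, -9.02 without a pseudocount, was -6.69 with a pseudocount of 1, -8.53 with 0.1, -8.97 when centred on the median and -8.73 with both columns rescaled to the same sum. That of 2410007B07Rik, -7.48, was -5.64, -7.14, -7.43 and -7.19 under the same settings. The share of rows of like ESC level with a smaller loss than Kis2 was 100% within 1.2-fold, with a pseudocount of 1, and without microRNA and small nucleolar RNA rows, and that for 2410007B07Rik was 100% without these rows. When neighbours above 0 in both conditions were counted, 0 were 2-fold lower for Kis2 and 3 for 2410007B07Rik. The number of rows at least 2-fold lower was 2403 without the FPKM filter and 863 with a filter of 5 FPKM, next to 1412. For noncoding rows it was 264 without the filter and 74 without the small RNA rows, next to 136. Of the 10 rows nearest in pattern, 3 were shared with a pseudocount of 0.1 and 1 without the small RNA rows. Leaving out small RNA rows and counting protein-coding neighbours were chosen after seeing the data. No paired analysis was possible because the table holds 1 value per condition, and for the same reason no replicate could be left out. Depth is unknown, which limits what can be said of values under 1 FPKM.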

Other observations

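Small nucleolar RNA host genes made up 10 of the long noncoding rows with a known name, and 9 of them had a lower FPKM in NCs, with a median log2 ratio of -0.96. These genes carry small nucleolar RNAs in their introns, and their spliced RNAs are mostly degraded. At least 2-fold lower in NCs were 4 of the 10, beside 19.8% of long noncoding rows, among them Snhg12 (75.3 to 32.3 FPKM, log2 ratio -1.22), whereas with the columns rescaled to the same sum 0 of the 10 passed this limit. Their losses were thus small beside those of Kis2 and 2410007B07Rik, and their count depends on the scaling of the columns.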
